A study of Mus musculus with 6 samples.

Results

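Glucose transport, glycolysis and lactate handling were followed through 36 genes, from the transporters at the cell surface to the enzymes and carriers that make and move lactate. A gene was measured where a probe set (the group of short oligonucleotides that reads 1 transcript) had it as its only gene symbol in the platform annotation, and its value was taken from the probe set with the highest mean over the 6 arrays. This held for 33 of the 36 genes, out of 18194 genes on the array, through 74 probe sets in all. Eno1, Gpi1 and Pfkfb1 were not analysed here because no probe set carried them as its only symbol. The tissue was cardiac ventricle from mice that were 8 weeks old. Total RNA of 3 wild-type samples was compared with that of 3 samples carrying a heart-specific transgene for an active form of Akt (caAkt), the kinase that insulin and growth factors switch on. The transgene was constitutive, and the study set out to follow changes in gene expression as heart failure develops in these mice. No further allele, agent or treatment was given in the labels, nor were the transgene's promoter, the strain and the sex of the mice, or whether each array held 1 heart.

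Glycolysis splits glucose into pyruvate in the cytosol. Glucose enters through carriers of the SLC2 (GLUT) family, is trapped by a hexokinase, and is committed by phosphofructokinase, the step at which the pathway is most tightly controlled. Most steps have several isoforms encoded by separate genes, of which striated muscle uses a characteristic set (Slc2a4, Hk2, Pfkm, Pgam2, Eno3), while other tissues and the fetal heart use others. The adult heart burns mostly fatty acids and takes up lactate as a fuel, and its lactate dehydrogenase is rich in the B subunit. Insulin signalling through Akt is known for moving GLUT4, the product of Slc2a4, to the cell surface and for activating the cardiac form of the enzyme that makes fructose 2,6-bisphosphate, an activator of phosphofructokinase.

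Values are log2 signals, so a difference of 1 is a doubling. Arrays agreed closely, with correlations of 0.995 to 0.997 over all probe sets within a genotype and 0.983 to 0.985 between genotypes, and array medians lay between 6.77 and 6.80. The Akt1 probe set with the highest mean over the 6 arrays read 9.79, 9.79 and 10.18 in wild-type and 15.16, 15.10 and 15.08 in caAkt. This probe set thus separated the groups as labelled. Another, brighter on the wild-type arrays (10.70, 10.69 and 10.73), changed by -0.29 (limma adjusted p = 0.0281 over all probe sets). The remaining Akt1 probe sets were not called. The 3' minus 5' signal of Gapdh, a check of RNA integrity, averaged -0.05 ± 0.01 on the wild-type arrays (SD, n = 3) and -0.03 ± 0.02 on the caAkt arrays (exact two-sided permutation p = 0.3). Of 12 cardiomyocyte markers, whose mean signal was 14.72 to 14.87 in wild-type and 14.65 to 14.70 in caAkt, 4 were lower (Tnni3, Myl3, Ryr2 and Pln, at -0.35, -0.31, -0.41 and -0.40) and 0 higher by the limma fit at an adjusted p under 0.05. The Ryr2 call was lost on leaving out caAkt replicate 2, caAkt replicate 3, wild-type replicate 1 or wild-type replicate 2 (highest adjusted p = 0.156). Of 12 macrophage markers 11 were higher and Cd163 was lower (not so without wild-type replicate 1 or without caAkt replicate 1, highest adjusted p = 0.0715), and their mean signal was 8.79 to 9.02 in wild-type and 10.01 to 10.31 in caAkt. Of 10 fibroblast markers 8 were higher, with mean signals of 11.17 to 11.40 and 12.44 to 12.62. Of these, Pdgfra, named after its values were seen, lost its call without wild-type replicate 3, caAkt replicate 2 or caAkt replicate 3 (highest adjusted p = 0.0703). No marker of neutrophils (0 of 6 called, mean 6.19 to 6.86 against 6.13 to 6.33) or skeletal muscle (2 of 8 lower, 7.76 to 7.94 against 7.70 to 7.80) was called higher. Of 10 endothelial markers 3 were lower (Kdr, Tek and Emcn), and of 7 smooth muscle and pericyte markers 2 were higher (Cspg4 and Tagln). When arrays were left out in turn, the Emcn and Tagln calls each held in only 2 of 6 fits (adjusted p up to 0.0906 and 0.124). The groups overlapped for Tagln. Of 5 adipocyte markers 3 were lower (Adipoq at -1.73, Cidec at -0.30 and Retn at -0.24), with mean signals of 5.78 to 6.06 in wild-type and 5.38 to 5.52 in caAkt, and of these Adipoq alone was called with each array left out in turn. Of 3 erythroid markers, Alas2 (-1.04) and Slc4a1 (-0.99) were lower. The Slc4a1 call was lost on leaving out wild-type replicate 1, wild-type replicate 3, caAkt replicate 2 or caAkt replicate 3 (highest adjusted p = 0.119). In whole ventricle, fewer cells of a type and less RNA per cell cannot be told apart, and the part of these cell types in the results that follow was not tested.

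In caAkt ventricles, 12 of the 33 measured genes were higher and 8 were lower (limma, adjusted p under 0.05 over all genes), while 13 were not called. Over all 18194 genes, 16.1% were called higher and 12.4% lower, together 28.5%, against 60.6% of the 33. Among the members, the direction went with the form as grouped here, in counts that were added after the data were seen. Slc2a12, found in heart and skeletal muscle, was placed in neither group. Ldha, which predominates in glycolytic muscle, and Slc16a3, the lactate exporter of glycolytic cells including such muscle, were counted with the other forms. Both were called higher, so the counts by form depend on this placement. Of 10 measured heart or muscle forms (Slc2a4, Hk2, Pfkm, Pfkfb2, Fbp2, Aldoa, Pgam2, Eno3, Ldhb and Slc16a1), 6 were lower and 0 were higher, with a median log2 fold change of -0.43. Of 13 measured other forms of the same steps (Slc2a1, Slc2a3, Hk1, Hk3, Pfkl, Pfkp, Pfkfb3, Pfkfb4, Aldoc, Pgam1, Eno2, Ldha and Slc16a3), 9 were higher and 0 were lower, with a median of 0.70. Further carriers of glucose or lactate and further enzymes of the steps, listed apart below, are not in this count. Of these, Slc16a7 (-0.85) and Slc16a8 (-0.25) were lower, Slc2a13 (0.41), Pgp (0.47) and Minpp1 (0.44) were higher, and the rest were not called. The median over the 33 genes was 0.10, beside -0.04 over all genes. The largest rises were those of Eno2 (3.27-fold), Pfkp (2.93-fold) and Slc16a3 (2.45-fold), and the largest falls were those of Slc2a12 (4.61-fold) and Fbp2 (2.22-fold). These 5 were the members called with a change of at least 2-fold, which 2.48% of all genes reached upward and 0.962% downward. All 20 called genes had groups that did not overlap, as did 27 of the 33, against 42.4% of all genes. Plain probe sets are those whose names mark no shared or grouped probes, and 26 members have them. With these only, 6 members were higher and 7 lower, 3 of the other forms were higher, and the median was -0.09. Of the other forms called higher, Hk1, Pgam1, Eno2 and Ldha have no plain probe set, and Slc2a3 and Pfkl lost their calls.

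**Figure D1:**
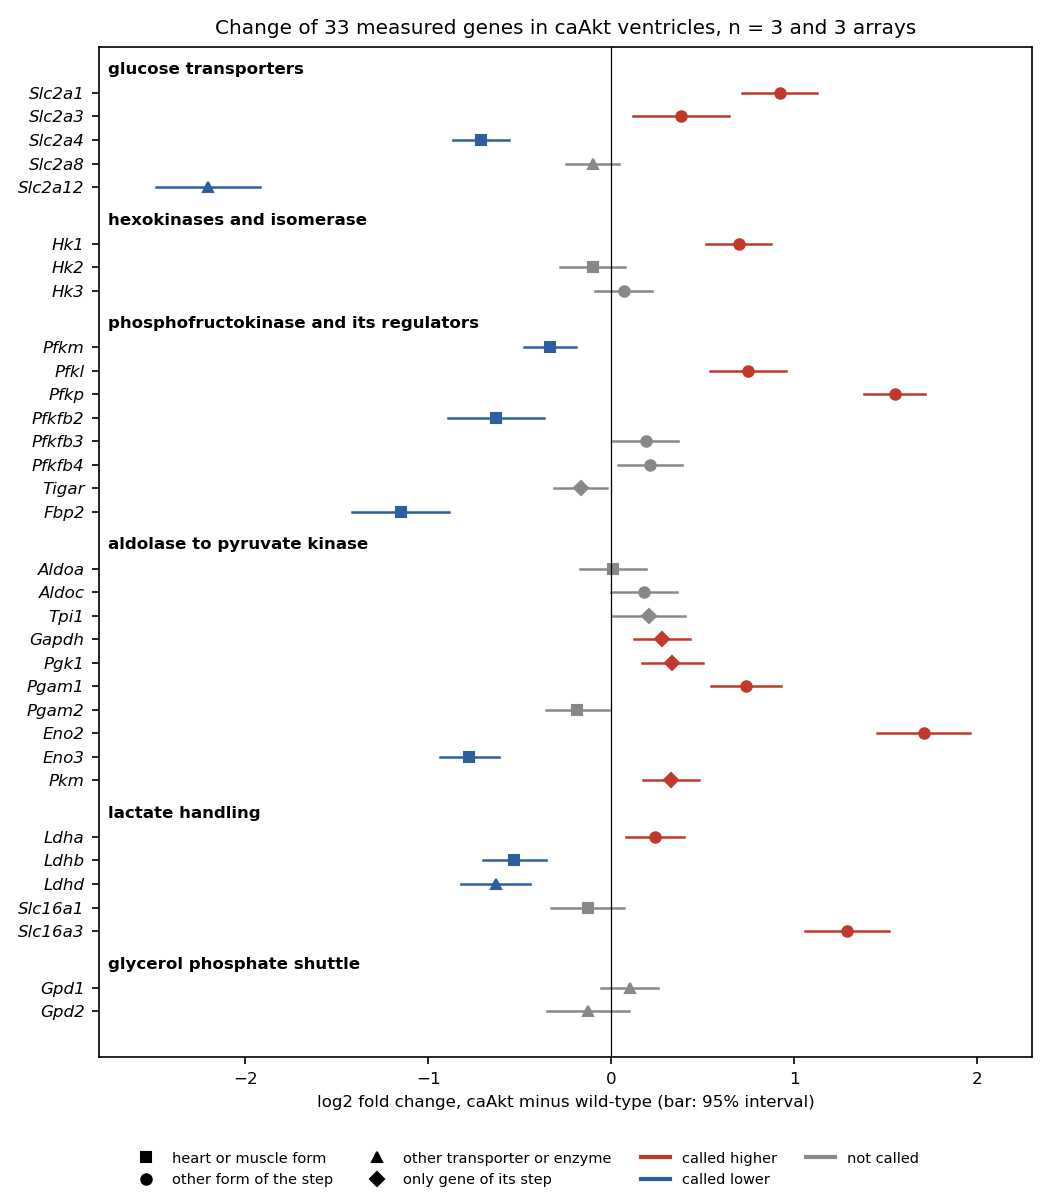
Log2 fold change (caAkt minus wild-type) of each measured gene, ordered by step, with its 95% interval from the limma fit on 3 and 3 arrays. Squares are heart or muscle forms, circles other forms of the same step, triangles further transporters or enzymes and diamonds genes without a second form here; red and blue are called higher and lower. Among the squares 6 are blue and 0 red, the lowest being Fbp2 at -1.15, and among the circles 9 are red and 0 blue, the highest being Eno2 at 1.71; Slc2a12, a triangle, lies lowest of all at -2.21.

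The promoters of the genes that moved most are shown because Hif1a, whose product binds a short core motif in the promoters of glycolytic genes, was itself higher, by 0.71 on the log2 scale. They are the 3 largest called rises and the 3 largest called falls among genes with a single start in the RefSeq promoter table (GRCm38.p6), given as the 250 bases before the start, 5′ to 3′ on the gene's strand. Capitals mark ACGTG or GCGTG, the core of the hypoxia response element, on either strand.
Eno2 (neuronal enolase, higher), chr6:124769674-124769923, minus strand: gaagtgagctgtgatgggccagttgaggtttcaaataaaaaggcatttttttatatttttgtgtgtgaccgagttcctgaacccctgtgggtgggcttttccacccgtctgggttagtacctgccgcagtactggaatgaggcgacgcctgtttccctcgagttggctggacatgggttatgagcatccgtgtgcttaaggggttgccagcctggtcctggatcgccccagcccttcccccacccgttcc
Pfkp (platelet phosphofructokinase, higher), chr13:6648772-6649021, minus strand: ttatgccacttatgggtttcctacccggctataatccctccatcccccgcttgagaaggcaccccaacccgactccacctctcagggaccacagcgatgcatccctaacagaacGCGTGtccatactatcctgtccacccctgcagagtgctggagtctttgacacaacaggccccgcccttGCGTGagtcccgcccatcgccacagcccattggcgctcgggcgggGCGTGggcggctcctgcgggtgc
Slc16a3 (lactate exporter MCT4, higher), chr11:120948817-120949066, plus strand: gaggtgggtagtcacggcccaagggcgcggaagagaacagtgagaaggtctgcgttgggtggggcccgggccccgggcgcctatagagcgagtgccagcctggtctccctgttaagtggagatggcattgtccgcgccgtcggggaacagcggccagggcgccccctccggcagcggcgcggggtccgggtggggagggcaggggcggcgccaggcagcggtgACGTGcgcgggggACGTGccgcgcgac
Slc2a12 (GLUT12, lower), chr10:22644761-22645010, plus strand: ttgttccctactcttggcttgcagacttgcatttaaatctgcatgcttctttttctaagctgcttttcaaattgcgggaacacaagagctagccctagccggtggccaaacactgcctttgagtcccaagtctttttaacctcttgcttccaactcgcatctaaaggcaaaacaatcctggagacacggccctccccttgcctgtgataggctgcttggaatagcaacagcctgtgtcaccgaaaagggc
Fbp2 (muscle fructose bisphosphatase, lower), chr13:62858401-62858650, minus strand: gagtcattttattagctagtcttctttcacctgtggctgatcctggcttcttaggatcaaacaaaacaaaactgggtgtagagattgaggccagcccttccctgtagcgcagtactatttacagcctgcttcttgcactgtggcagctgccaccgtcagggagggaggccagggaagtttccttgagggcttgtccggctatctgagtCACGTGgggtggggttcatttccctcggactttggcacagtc
Eno3 (muscle enolase, lower), chr11:70656926-70657175, plus strand: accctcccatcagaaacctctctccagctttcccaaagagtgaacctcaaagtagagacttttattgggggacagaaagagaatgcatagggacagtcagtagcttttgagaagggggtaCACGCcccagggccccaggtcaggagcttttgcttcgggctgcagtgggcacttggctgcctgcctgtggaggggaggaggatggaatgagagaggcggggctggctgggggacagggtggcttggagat

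Pfkp held 3 matches in this window and Slc16a3 held 2, whereas Eno2, the gene with the largest rise, held 0. Among the genes that fell, Fbp2 held 2 overlapping matches, which together spell the palindrome CACGTG, Eno3 held 1 and Slc2a12 held 0. The measured genes Slc2a3, Slc2a4 and Gpd1 had no entry in the promoter table. Of the 36 members 33 had an entry (51 promoters), and 30 of these were measured. Among the measured ones, the core was found in 11 of 14 promoters of called-higher genes (78.6%). It was found in 10 of 12 promoters of called-lower genes (83.3%). It was found in 12 of 17 promoters of genes that were not called (70.6%). It was found in 38.6% of all 32851 promoters of this length. The E-box CACGTG, which contains ACGTG, was in 1 of 14 promoters of higher genes and 4 of 12 of lower genes. It was in 2 of 17 of genes not called and 6.02% of all. The promoters counted differed in base composition, with a median of 15 CpG dinucleotides per promoter in the higher genes and 5.5 in the lower genes. The median was 13 in the genes not called and 6 in all promoters. The Sp1-type motif GGGCGG was in 6 of 14 promoters of higher genes and 1 of 12 of lower genes. It was most frequent in the genes not called (11 of 17), and 32.7% of all promoters held it. The core itself contains a CpG, and promoters of 1 gene can overlap. The 14 promoters of higher genes came from 11 genes, the 12 of lower genes from 7 and the 17 of genes not called from 12. Pfkm and Pfkfb2 each had several of the 12, so these shares and medians count promoters, not independent genes.

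At the cell surface, 2 of 5 glucose transporters were higher and 2 were lower. Slc2a12 encodes GLUT12, a carrier found in heart and skeletal muscle. It read 8.52, 8.05 and 8.16 on the wild-type arrays and 5.89, 6.17 and 6.05 on the caAkt arrays. The groups were 1.87 apart, and the log2 fold change was -2.21 ± 0.13 (SE, n = 3 and 3, limma adjusted p = 4.62e-06). Its other probe set also fell, by 0.47 ± 0.08 on the log2 scale, so the size of the fall differed between probe sets. The brighter one is of a kind whose probes all match more than 1 transcript. Slc2a4, the insulin-responsive GLUT4 of muscle and fat, read 12.50, 12.53 and 12.63 in wild-type and 11.84, 11.85 and 11.82 in caAkt, and its 2 probe sets gave -0.71 and -0.68. The adipocyte markers, 3 of 5 lower with a median of -0.24, moved with it, and their part in its fall was not tested.

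Slc2a1 encodes GLUT1, the carrier of most tissues and of the fetal heart. It read 9.10, 9.02 and 8.81 in wild-type and 9.99, 9.82 and 9.87 in caAkt, a log2 fold change of 0.92 ± 0.09, and its other probe sets gave 1.08 and 1.01. Slc2a3, GLUT3 of neurons and leukocytes, had values of 6.38, 6.61 and 6.39 against 6.63, 6.83 and 7.07, so the groups were separated by only 0.02. Its change of 0.38 ± 0.12 was called (adjusted p = 0.0364), whereas its 3 dimmer probe sets read 0.10, -0.12 and -0.01, none of them called. Leaving out wild-type replicate 1, wild-type replicate 3, caAkt replicate 2 or caAkt replicate 3 ended the call, and the highest adjusted p was 0.111. Slc2a8 (GLUT8, an intracellular carrier) changed by -0.10 with a 95% interval of -0.25 to 0.04 and was not called (adjusted p = 0.275).

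Phosphorylation of glucose differed by isoform. Hk1, the hexokinase of brain and most other tissues, read 11.46, 11.65 and 11.69 in wild-type and 12.30, 12.32 and 12.26 in caAkt, a rise of 0.70 ± 0.08 on the log2 scale (adjusted p = 0.0002), and its second probe set gave 0.84. All caAkt values of Hk1 thus lay above all wild-type values. Hk2, the insulin-responsive hexokinase of muscle, read 12.37, 12.39 and 12.31 against 12.31, 12.12 and 12.33. These groups overlapped, and the change of -0.10 had a 95% interval of -0.28 to 0.07 (adjusted p = 0.364). Hk3, a hexokinase of leukocytes, had 0.07 with an interval of -0.09 to 0.22 and overlapping groups, beside macrophage markers with a median of 1.31.

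**Figure D2:**
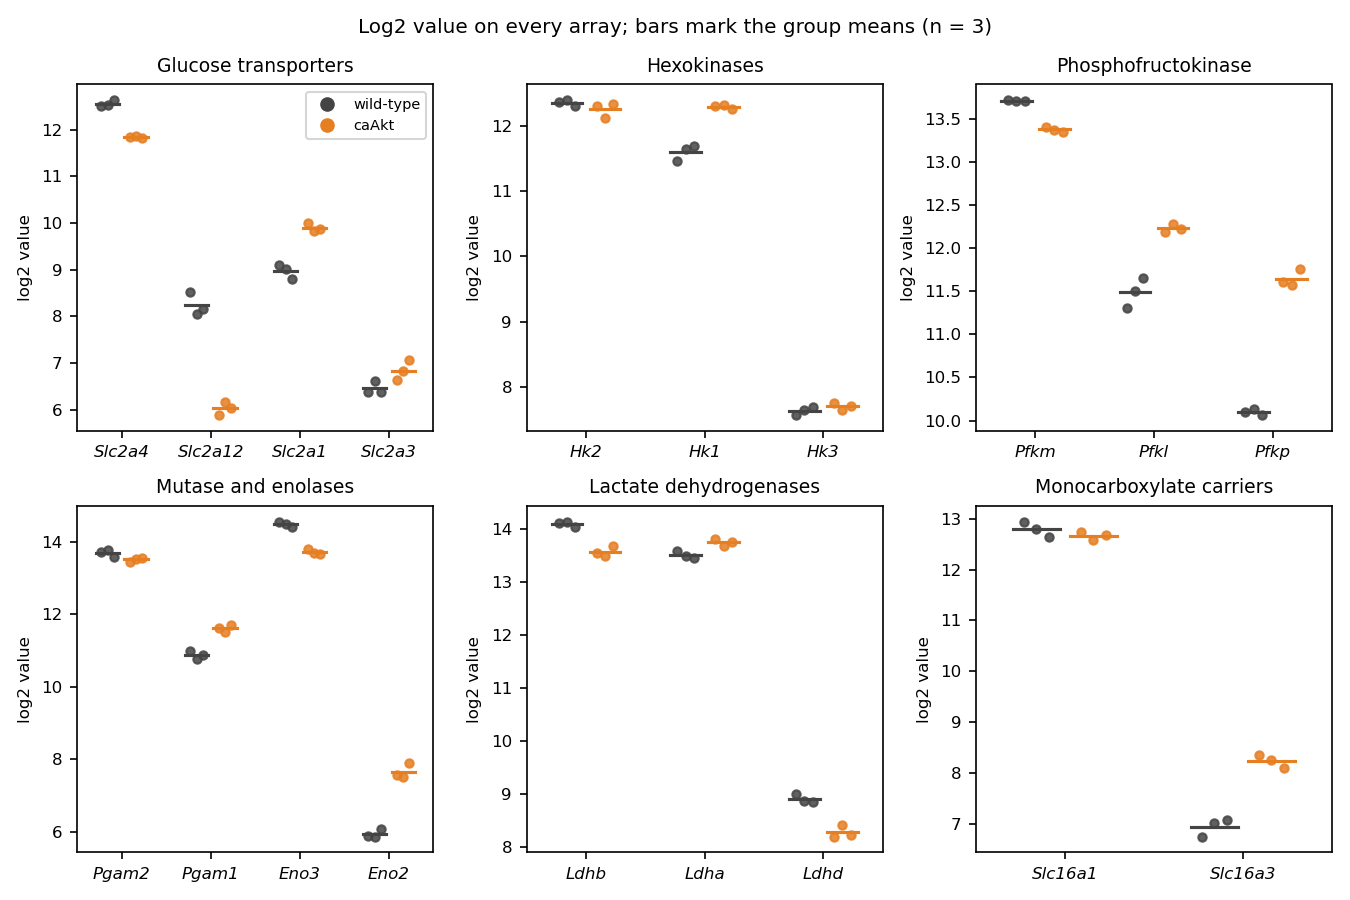
Log2 value (vertical axes) of heart or muscle forms and other forms on every array, with dark points for wild-type and orange for caAkt arrays and a bar at each group mean (n = 3). Heights of different genes cannot be compared, because probe sets differ in brightness; within a gene, the caAkt points of Pfkl, Pfkp, Hk1, Pgam1, Eno2 and Slc16a3 lie above the wild-type points, and those of Slc2a4, Slc2a12, Pfkm, Eno3, Ldhb and Ldhd lie below them.

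Phosphofructokinase assembles from 3 subunit genes, and these moved in opposite directions. The platelet type Pfkp read 10.10, 10.13 and 10.06 in wild-type and 11.61, 11.58 and 11.76 in caAkt, with 1.44 between the groups. Its log2 fold change was 1.55 ± 0.07 (adjusted p = 1.79e-06), and the other 2 probe sets gave 1.60 and 0.61. The liver type Pfkl rose from 11.31, 11.50 and 11.65 to 12.19, 12.28 and 12.22, a change of 0.75 ± 0.09 with a second probe set at 0.79. Another, dimmer Pfkl probe set gave -0.07 and was not called. The muscle type Pfkm was almost constant within groups, at 13.72, 13.71 and 13.71 against 13.41, 13.37 and 13.35, and fell by 0.34 ± 0.06 on the log2 scale (adjusted p = 0.00349), or 1.26-fold.

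The enzymes that set the level of fructose 2,6-bisphosphate are bifunctional kinases and phosphatases of the PFKFB family. Pfkfb2, the cardiac form whose product is a substrate of Akt, read 9.29, 9.68 and 9.25 in wild-type and 8.85, 8.80 and 8.67 in caAkt, a change of -0.63 ± 0.12 (adjusted p = 0.0032). The changes at its 3 dimmer probe sets were -0.07, -0.32 and -0.15, none of them called. Pfkfb3, the inducible form, and Pfkfb4 had values of 0.19 ± 0.08 (adjusted p = 0.108) and 0.21 ± 0.08 (adjusted p = 0.0716). Their groups did not overlap, with gaps of 0.03 and 0.07.

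Fbp2, the muscle fructose bisphosphatase, which runs the phosphofructokinase step backwards, had the second largest fall. It read 9.47, 9.05 and 9.19 in wild-type and 8.18, 8.17 and 7.92 in caAkt, a fall of 2.22-fold and a log2 change of -1.15 ± 0.12 (adjusted p = 0.000107). The groups were 0.87 apart. Tigar, a phosphatase that lowers fructose 2,6-bisphosphate, gave no single direction. Its brightest probe set had -0.17 ± 0.06 (adjusted p = 0.0848), another had 0.33 and was called among all probe sets (adjusted p = 0.00937), and the last had -0.08.

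In lower glycolysis, 5 of 10 measured genes were higher and only Eno3 was lower. Of the 5 genes without a second form here, Gapdh, Pgk1 and Pkm were higher, while Tpi1 and Tigar were not called. Gapdh, which is often used as a reference gene, read 14.82, 14.84 and 14.73 in wild-type and 15.09, 15.03 and 15.10 in caAkt, a change of 0.28 ± 0.07 (adjusted p = 0.0136). The kinase Pgk1 rose by 0.33 ± 0.07 and the pyruvate kinase Pkm by 0.33 ± 0.07 (adjusted p = 0.00871 and 0.0058), each 1.26-fold. Tpi1, the triose phosphate isomerase, had 0.21 with a 95% interval of 0.01 to 0.40 and was not called (adjusted p = 0.111). Gapdh was read by control probe sets of the array, and its levels of 14.73 to 15.10 lie close to the highest signals of the arrays (15.32 to 15.45), where differences may be compressed.

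Aldolase A, the muscle aldolase encoded by Aldoa, changed by 0.01 ± 0.08 with an interval of -0.17 to 0.19, and its 5 probe sets gave -0.06 to 0.03. It read 14.39, 14.30 and 14.29 against 14.45, 14.20 and 14.35, again near the top of the scale. The brain form Aldoc was dim, at 5.43 to 5.52 in wild-type and 5.52 to 5.74 in caAkt, below the 25th percentile of gene levels (5.99), and had 0.18 ± 0.08 (adjusted p = 0.13).

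The mutase and enolase steps separated by isoform. Pgam1, the mutase of most tissues, read 10.99, 10.78 and 10.88 in wild-type and 11.64, 11.50 and 11.72 in caAkt, a change of 0.74 ± 0.08 (adjusted p = 0.000213). The muscle mutase Pgam2 had -0.19 ± 0.08 with an interval of -0.36 to -0.01 and was not called (adjusted p = 0.102), though every caAkt value (13.45, 13.54 and 13.56) lay below every wild-type value (13.72, 13.79 and 13.60). Eno2, the neuronal enolase, had the largest rise of the members. It read 5.88, 5.87 and 6.09 in wild-type and 7.57, 7.50 and 7.89 in caAkt, a change of 1.71 ± 0.11 (adjusted p = 9.5e-06). Its wild-type mean of 5.95 lay below the 25th percentile of gene levels (5.99), and it was read by only 1 probe set, so the size of this rise is uncertain. Among nervous tissue markers 0 of 5 were higher and Stmn2 was lower, with mean signals of 6.18 to 6.26 in wild-type and 6.04 to 6.19 in caAkt. Eno3, the muscle enolase, read 14.56, 14.49 and 14.43 against 13.79, 13.68 and 13.67, so that the groups were 0.63 apart and the change was -0.78 ± 0.07. This fall was 1.71-fold. The 12 cardiomyocyte markers had a median of -0.09 on the log2 scale, and the lowest was -0.41. Their mean signals, 14.72 to 14.87 in wild-type and 14.65 to 14.70 in caAkt, lie near the top of the scale. Differences may be compressed there, and the part of cell composition in the fall of Eno3 was not tested.

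Of 5 genes of lactate handling, Ldha and Slc16a3 were higher and Ldhb and Ldhd were lower. Ldhb, the heart subunit of lactate dehydrogenase, read 14.12, 14.15 and 14.05 in wild-type and 13.55, 13.49 and 13.69 in caAkt, and its 4 probe sets gave -0.48 to -0.54, all called. Ldha, the subunit that predominates in glycolytic muscle, read 13.59, 13.51 and 13.46 against 13.81, 13.70 and 13.76, a change of 0.24 ± 0.07 (adjusted p = 0.0312). The Ldha call was lost when wild-type replicate 2, wild-type replicate 3, caAkt replicate 1 or caAkt replicate 3 was left out (adjusted p up to 0.0952). Ldhd, a mitochondrial enzyme that oxidises D-lactate, fell from 9.01, 8.88 and 8.85 to 8.20, 8.41 and 8.23, by 0.63 ± 0.08 on the log2 scale, and its other probe set fell by 0.97.

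Of the lactate carriers, Slc16a3 encodes MCT4, the exporter of glycolytic cells. It read 6.74, 7.01 and 7.06 in wild-type and 8.34, 8.24 and 8.10 in caAkt, a change of 1.29 ± 0.10 (adjusted p = 2.4e-05), with 1.04 between the groups. Slc16a1, the MCT1 carrier of the heart, which works in both directions, had overlapping groups (12.94, 12.79 and 12.64 against 12.73, 12.59 and 12.68) and a change of -0.13 with an interval of -0.33 to 0.07. Gpd1 and Gpd2, which carry cytosolic reducing power to the mitochondria through glycerol phosphate, had 0.10 (interval -0.05 to 0.25) and -0.13 (interval -0.35 to 0.10) and were not called.

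The shift between forms was compared directly as the log2 ratio of the heart or muscle form to another form of the same step within each array. Such a ratio has no meaning as a level, but its change between genotypes does. Of 14 planned pairs 13 could be formed, since Eno1 was not measured. In 11 of them every caAkt ratio lay below every wild-type ratio, in 0 above, and in 2 (Hk2 to Hk3 and Aldoa to Aldoc) the groups overlapped. Among single genes, 21.1% had caAkt values that all lay below the wild-type values. That share is not a like measure, since no share over ratios of 2 genes was computed. The ratios also combine members whose changes are already given above. With 3 arrays per group the exact permutation test cannot give a p below 0.1, which all 11 reached (0.118 after Benjamini-Hochberg adjustment over the 13 pairs), so none could pass 0.05. Several pairs share a gene and are not independent.

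The largest shift was that of the enolases. Relative to wild-type, the ratio of Eno3 to Eno2 fell by 2.48 ± 0.18 on the log2 scale (SE), or 5.60-fold, with Eno2 dim in wild-type (mean 5.95). Pfkm to Pfkp followed with -1.88 ± 0.07 and Pfkm to Pfkl with -1.08 ± 0.11. Slc2a4 to Slc2a1 changed by -1.63 ± 0.14, or 3.10-fold, and Slc2a4 to Slc2a3 by -1.09 ± 0.16. That last shift was -0.78 with the mean of each gene's probe sets and -0.70 with plain probe sets only. The carriers Slc16a1 to Slc16a3 changed by -1.42 ± 0.20. The mutases Pgam2 to Pgam1 (-0.92 ± 0.12), the hexokinases Hk2 to Hk1 (-0.80 ± 0.12) and the lactate dehydrogenases Ldhb to Ldha (-0.77 ± 0.06) shifted by less. So did Pfkfb2 against Pfkfb3 (-0.82 ± 0.13) and Pfkfb4 (-0.84 ± 0.14), which were -0.38 and -0.51 with the mean of each gene's probe sets. In the pairs Hk2 to Hk1, Pgam2 to Pgam1 and Slc16a1 to Slc16a3, the heart form itself was not called and the other form was. The ratio Pfkm to Pfkl was -0.27 with plain probe sets only, where the dim Pfkl probe set stands in.

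**Figure D3:**
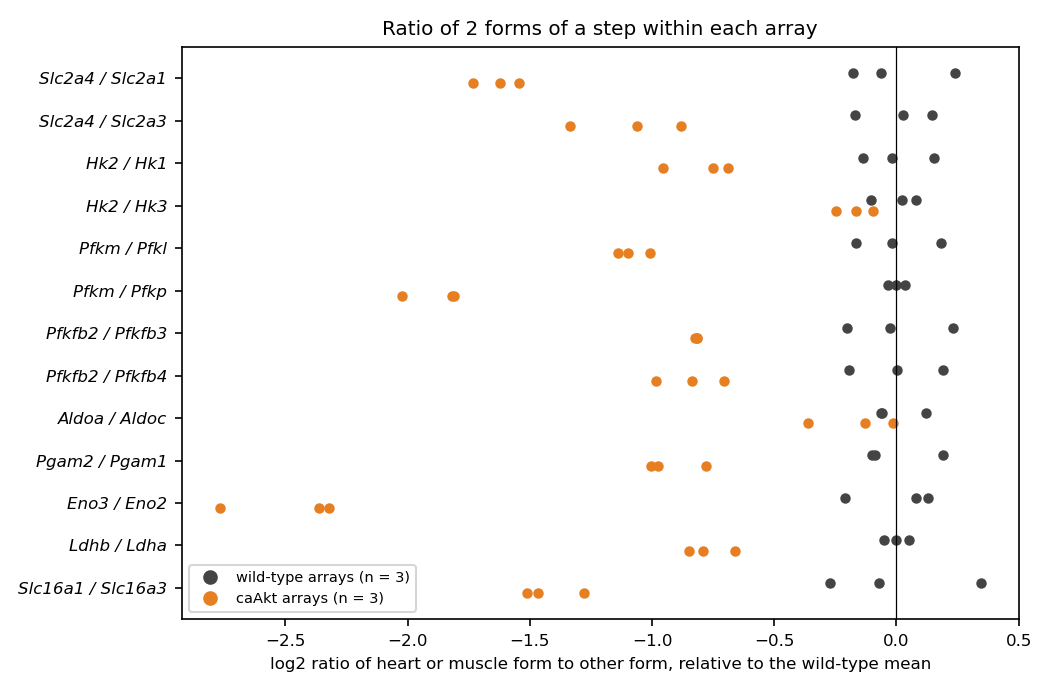
Log2 ratio of the heart or muscle form to the other form within each array, set to 0 at the wild-type mean of each pair (horizontal axis), for 3 wild-type (dark) and 3 caAkt (orange) arrays. In 11 of 13 pairs the orange points all lie left of the dark ones, most clearly for Eno3 to Eno2 (-2.48); the pairs Hk2 to Hk3 and Aldoa to Aldoc overlap.

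Probe sets of 1 gene can read different transcript ends. Of 21 members with more than 1 probe set, 12 had values of the same sign throughout and 16 had the same call throughout when all probe sets were fitted, where 20.0% of 45040 were called. Slc2a1, Slc2a4, Slc2a12, Hk1, Pfkp, Ldhb and Ldhd were called in 1 direction by every probe set they had. Pfkl, Pfkfb2, Tigar, Gapdh and Pgk1 had some probe sets called and some not. Slc2a3 had the same call throughout because its brightest probe set, called among genes, was not called there (adjusted p = 0.0532). Pgk1 was 0.33 at its brightest probe set and 0.24 and 0.21 at the others, which were not called. The brightest probe sets of Aldoa and Ldhb carry names that mark probes shared with related sequences, so near-identical copies may add to their signal.

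**Figure D4:**
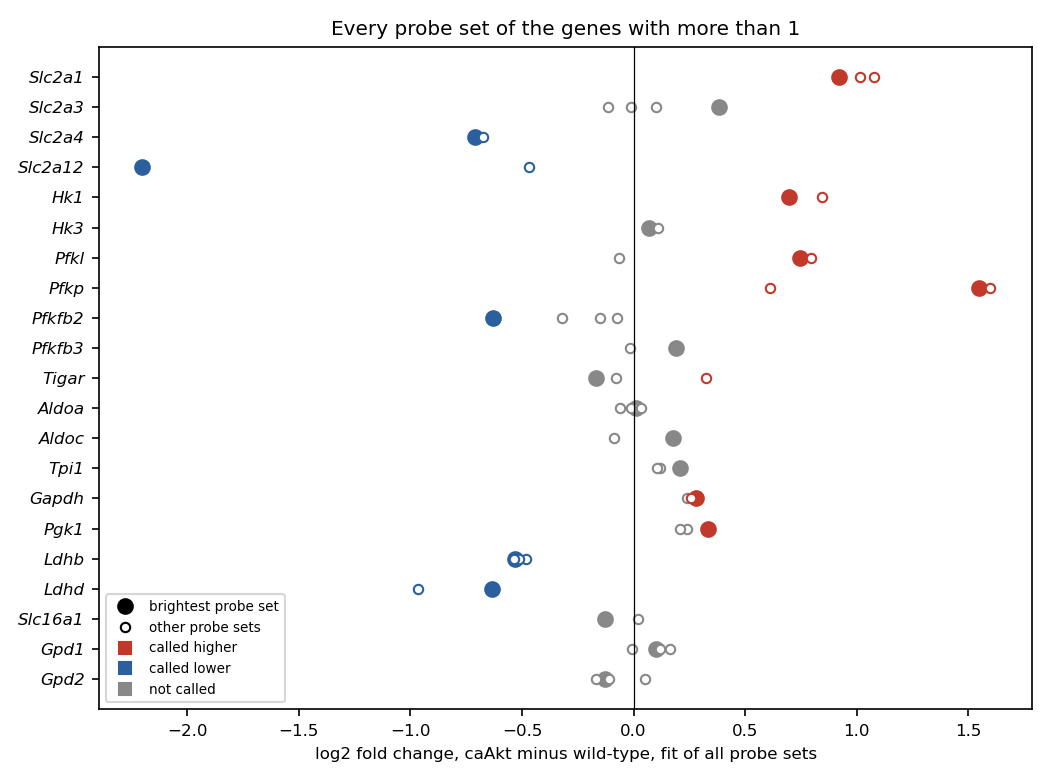
Log2 fold change (horizontal axis, caAkt minus wild-type) of every probe set of the 21 members that have more than 1, with the brightest probe set filled and colour showing the call when every probe set was fitted. The probe sets of Slc2a1, Slc2a4, Hk1 and Ldhb lie close together, while those of Slc2a12 (-2.21 and -0.47), Pfkp (0.61 to 1.60) and Tigar (-0.17 to 0.33) are spread.

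Other genes of the pathway were taken from lists chosen with earlier results of these data known, and their counts are read beside the 28.5% of all genes called. Of 8 further glucose carriers, only Slc2a13, a proton-coupled inositol carrier, was called (0.41 ± 0.09, adjusted p = 0.008), with a wild-type mean of 4.85, below the 25th percentile of gene levels. Of 10 further enzymes measured, 2 were higher, namely Pgp, which removes phosphoglycolate (0.47 ± 0.08), and Minpp1, an inositol and bisphosphoglycerate phosphatase (0.44 ± 0.09).

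Among 13 measured genes of GLUT4 vesicle traffic, 4 were higher and 2 were lower. Tbc1d4 encodes AS160, the Akt substrate that holds GLUT4 vesicles inside the cell until it is phosphorylated, and it fell by 0.78 ± 0.08 (adjusted p = 0.000155). Aspscr1, which encodes the tether TUG, rose by 0.65 ± 0.06 and the motor Myo1c by 0.58 ± 0.07. Rab14 (-0.26), Tbc1d1 (0.24) and Rab8a (0.22) were also called, but the Rab14 call was lost on leaving out wild-type replicate 1, wild-type replicate 2, caAkt replicate 1 or caAkt replicate 3 (highest adjusted p = 0.0891). Of the 6 comparisons that left out 1 array, Tbc1d1 was called only without caAkt replicate 1 and Rab8a only without caAkt replicate 2 (adjusted p up to 0.102 and 0.145).

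Of 13 measured genes for pyruvate entry into the mitochondria and for pyruvate dehydrogenase, 7 were lower and 1 was higher, and all 8 encode subunits of the dehydrogenase complex or its kinases and phosphatases. The pyruvate carrier Mpc1, named after its values were seen, had -0.19 ± 0.12 with overlapping groups and was not called (adjusted p = 0.264). Both a brake and a release of pyruvate dehydrogenase fell, the kinase Pdk2 by 0.95 ± 0.07 and the phosphatase Pdp2 by 1.05 ± 0.08 (adjusted p = 1.8e-05 and 2.18e-05). Pdk1 fell by 0.53 ± 0.07, while Pdk3 rose by 0.66 ± 0.11. The subunits Dld (-0.67, adjusted p = 0.00306) and Pdhb (-0.44, adjusted p = 0.0027), also named after their values were seen, kept their calls with each of the 6 arrays left out in turn. The subunits Pdha1 (-0.28) and Dlat (-0.32) were not called without wild-type replicate 1 or 2 (adjusted p up to 0.0676 and 0.131), nor without caAkt replicates 2 and 3 in turn for Pdha1 or 1 and 2 in turn for Dlat. The malate-aspartate shuttle, the main route for cytosolic reducing power in the heart, was lower in 5 of 7 genes and higher in 0. The aspartate carrier Slc25a12 fell by 0.67 ± 0.07, Got2 by 0.48 ± 0.06, Slc25a11 by 0.44 ± 0.08, Slc25a13 by 0.39 ± 0.07 and Got1 by 0.30 ± 0.07. Of the 4 further lactate carriers and partners, Slc16a7, the MCT2 importer, fell by 0.85 ± 0.07 (adjusted p = 2.27e-05), Emb, a chaperone of these carriers, rose by 0.44 ± 0.09, and its relative Bsg had -0.13 and was not called. Slc16a8 fell by 0.25, a call that held only without wild-type replicate 3 when arrays were left out in turn (adjusted p up to 0.111).

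Transcription factors that act on glycolytic genes were lower in 5 of 12 cases and higher in 2. Hif1a, the hypoxia factor that drives Slc2a1, Pgk1 and Ldha, rose by 0.71 ± 0.15 (adjusted p = 0.00604), and Myc, which acts on many of the same genes, by 0.91 ± 0.12. The related Epas1 fell by 0.57 ± 0.08 and Mycn by 0.97 ± 0.13. Mlxipl, the glucose-sensing factor ChREBP, had the largest fall of the list, 1.58 ± 0.13 on the log2 scale (adjusted p = 2.76e-05). The GLUT4 activators Klf15 and Mef2a fell by 1.38 ± 0.15 and 0.60 ± 0.08. The related Mef2c (0.03) and Mef2d (-0.19), named after their values were seen, were not called. Whether any of these factors acted on the members was not tested. Among 13 targets of hypoxia factors that are not glycolytic, 6 were higher and 2 were lower. The collagen hydroxylase P4ha1 rose by 1.16 ± 0.09 and Ddit4, an inhibitor of mTOR signalling, by 1.35 ± 0.16 (adjusted p = 2.29e-05 and 0.000255). The peptide hormone Adm rose by 0.71 ± 0.09 and the histone demethylase Kdm3a by 0.50 ± 0.07. Egln3 (0.40), named after its values were seen, lost its call when wild-type replicate 2, caAkt replicate 1 or caAkt replicate 3 was left out (adjusted p up to 0.0784). The growth factor Vegfa fell by 0.42 ± 0.10 and the oxygen sensor Egln1 by 0.37 ± 0.07, and the Vegfa call was lost on leaving out caAkt replicate 2, wild-type replicate 1 or wild-type replicate 2, with adjusted p up to 0.0564. Of 4 splicing factors that choose between the muscle and the proliferation form of Pkm, Ptbp1 rose by 0.31 ± 0.07 (adjusted p = 0.0093), but it was not called with the mean of its probe sets or with plain probe sets only. Hnrnpa2b1 fell by 0.28 ± 0.09 (adjusted p = 0.0498), a call lost on leaving out wild-type replicate 1, wild-type replicate 2, caAkt replicate 2 or caAkt replicate 3 (highest adjusted p = 0.157). The annotation does not say which of these forms the single Pkm probe set reads.

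**Figure D5:**
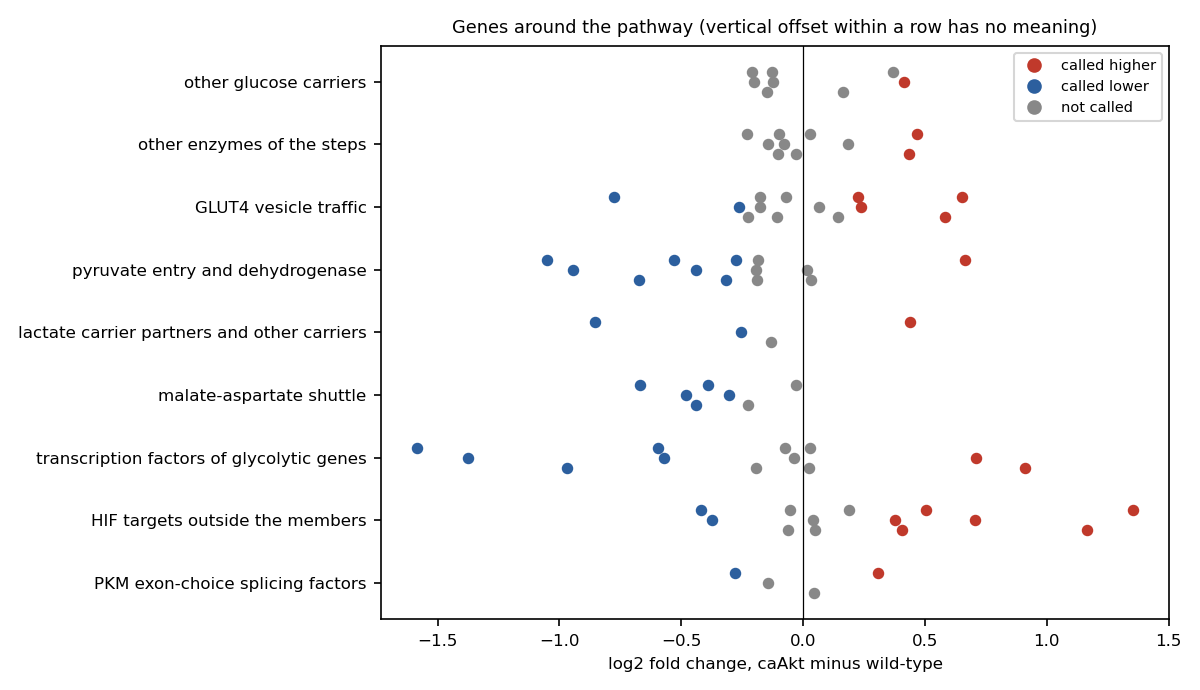
Log2 fold change (horizontal axis, caAkt minus wild-type, n = 3 and 3 arrays) of every measured gene of the 9 lists around the pathway, red for called higher, blue for called lower and grey for not called. The malate-aspartate shuttle has 5 blue and 0 red points, pyruvate entry and dehydrogenase 7 blue and 1 red, and the hypoxia targets 6 red and 2 blue.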

How the data were processed

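Total RNA from 3 wild-type and 3 caAkt ventricle samples was biotin-labelled and hybridised to 1 Affymetrix array each. The deposited values are log2 expression per probe set, which the authors made with RMA in the R package affy, per the submitters' processing notes (versions are not given in the sources used here). RMA corrects background, equalises distributions and summarises probes, so it can compress bright signals and a shift of all genes would not be seen. Probe sets were named from GEO's platform annotation: of 45101, 34945 carried 1 symbol and 932 several. Control probe sets were left out except those of Gapdh.

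The brightest probe set stood for each of 18194 genes. The genotype difference was fitted in R 4.3.3 with the package limma 3.58.1 (4 residual degrees of freedom), with Benjamini-Hochberg adjustment over all genes and a threshold of 0.05. Ratios of forms were compared with exact two-sided permutation tests. Nothing in the labels says that each array is a separate animal, so p-values reflect only how far these samples spread, and that spread may be technical. The comparison was tested on simulated data: 93.9% of 66 genes changed by 1 log2 unit were recovered, 49.3% of 67 changed by 0.5 and 0 of 67 changed by 0.25. Intervals are 95% intervals, and the 3 arrays per group limit their precision.

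All members are named, and up to 4 genes of each list by smallest p, or all where 5 or fewer were called in 1 direction. Members and lists were chosen with earlier results of these data known. Alternatives changed the probe set rule, normalization, variance model, array weights, filter, threshold, block and arrays left out. RefSeq promoters (GRCm38.p6) were searched over 250 bases.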

Additional observations from a re-analysis of the deposited data

How the results depend on the processing

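The 12 higher and 8 lower members were found again as counts with trend and robust variance settings, median centring, a filter on dim genes and a replicate block. The same-numbered samples had deviations that correlated at 0.27, 0.03 and -0.12, and not every sample correlated best with its own number. With 3 arrays per group, such values cannot settle whether the numbers pair the samples. With the replicate block, 2904 genes were called higher and 2239 lower over the whole array. Array weights gave 11 higher and 10 lower members, a renewed quantile normalization 12 and 9, the mean of each gene's probe sets 11 and 8, and a threshold of 0.01 gave 9 and 8. Hk1, Aldoa, Pgam1, Eno2, Ldha and Ldhb have no plain probe set, so their ratios could not be formed with plain probe sets only. In that setting, which 26 members have, 6 were higher and 3 other forms were higher. There 7 ratios were lower without overlap, and the median log2 fold change of the members became -0.094. There Slc2a3 gave -0.011 (limma adjusted p = 0.930) and Pfkl -0.067 (adjusted p = 0.624), each from another probe set. That median was 0.038 after renewed quantile normalization and 0.064 to 0.14 when arrays were left out in turn, with 10 to 11 members higher and 8 lower. In these settings 0 heart or muscle forms were called higher and 0 other forms lower. Counts by form, and the ranges for single neighbouring genes, were added after seeing the data. In the simulation 0 of 67 genes changed by 0.25 were called, where only 200 genes were changed. For members that were not called, the 95% intervals bound the change.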
